A study of Mus musculus with 22 samples.

Results

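Grb10 and 9 other genes of imprinted regions were followed through 22 RNA-seq libraries of mouse embryonic stem (mES) cells and of cultures made from them. The 10 genes are Grb10, Peg3, Peg10, Sgce, Mest, Copg2, Plagl1, Nnat, Igf2r and Slc38a4. They were taken by name from the 55141 genes of the deposited tables. The list was selected on measured values: Grb10 had stood out for its difference between genotypes in these same libraries. The differences between genotypes are therefore given below as a description, with no p-value, and calls there are counted only beside the share of all genes. Changes with culture, time and treatment are tested. All of them but the time change with Chiron use libraries that also enter the genotype differences.

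Both genotypes started from the same kind of culture. Wild-type (wt) and Hox-/- mES cells were kept with serum, LIF (100 ng/ml), CHIR99021 (3 µM), which inhibits GSK-3, and PD0325901 (1 µM), which inhibits MEK1/2, and gave 2 libraries of each. Endoderm cultures of both genotypes were seeded in plates, received Activin A (100 ng/ml) with CHIR99021 (3 µM) at 24 h and at 72 h, and were collected at 120 h, giving 3 libraries of each. Gastruloids, balls of stem cells that grow out and pattern themselves somewhat like an early embryo, were made with Activin A from both genotypes and with Chiron from wt cells alone. Each gastruloid group, taken at 96 h or at 120 h, has 2 libraries, and the doses used are not given in the sources used here. Endoderm cultures and gastruloids are labelled as mixed cells. The labels call the Hox-/- libraries BADC, name no clone and do not say whether the replicates were separate cultures, so the p-values measure only the spread between these libraries. Genotype and cell line cannot be told apart.

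An imprinted gene is transcribed mainly from the allele of one parent, usually because DNA methylation laid down in the egg or the sperm at a nearby control region persists in the embryo. Many imprinted genes act on growth. Grb10 encodes an adaptor that binds the insulin and IGF1 receptors and restrains growth, and it is expressed from the maternal allele in most tissues and from the paternal allele in neurons. Igf2r, also maternal, carries IGF2 to the lysosome, whereas Peg3, Peg10, Sgce, Mest, Plagl1, Nnat and Slc38a4 are expressed from the paternal allele. Gene counts do not separate the alleles, so the values below are sums over both.

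The promoters that RefSeq lists for these genes differ widely in CpG content, and 4 of them are shown because the results below turn on their genes. RefSeq (GRCm38.p6) had an entry for 8 of the 10 genes, with 13 start sites in all. Each sequence is the 250 bases before a start site, read 5′ to 3′ on the gene's strand, with every CG pair in capitals. They are, for Grb10, chr11:12037421-12037670 and chr11:12027972-12028221 (both minus strand), for Peg3 chr7:6730420-6730669 (minus) and for Mest chr6:30737800-30738049 (plus).
Grb10, upstream start: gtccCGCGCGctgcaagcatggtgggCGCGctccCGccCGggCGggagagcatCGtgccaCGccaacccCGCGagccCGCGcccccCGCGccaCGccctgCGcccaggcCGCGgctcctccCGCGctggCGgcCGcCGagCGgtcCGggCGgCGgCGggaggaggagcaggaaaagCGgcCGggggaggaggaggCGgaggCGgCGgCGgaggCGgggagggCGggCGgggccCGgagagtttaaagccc
Grb10, downstream start: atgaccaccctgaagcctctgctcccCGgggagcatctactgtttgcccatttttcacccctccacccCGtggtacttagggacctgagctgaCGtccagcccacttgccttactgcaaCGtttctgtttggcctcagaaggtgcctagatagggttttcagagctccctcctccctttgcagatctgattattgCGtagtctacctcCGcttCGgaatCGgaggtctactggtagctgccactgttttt
Peg3: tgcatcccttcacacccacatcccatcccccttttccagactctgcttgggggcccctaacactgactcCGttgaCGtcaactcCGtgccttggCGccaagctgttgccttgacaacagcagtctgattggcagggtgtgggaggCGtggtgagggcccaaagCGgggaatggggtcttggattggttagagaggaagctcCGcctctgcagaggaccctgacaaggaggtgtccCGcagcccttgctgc
Mest: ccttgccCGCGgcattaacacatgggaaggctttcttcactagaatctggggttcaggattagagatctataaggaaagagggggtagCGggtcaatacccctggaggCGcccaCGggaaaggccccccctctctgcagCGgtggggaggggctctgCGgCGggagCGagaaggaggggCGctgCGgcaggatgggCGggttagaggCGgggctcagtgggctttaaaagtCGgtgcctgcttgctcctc
The upstream Grb10 promoter held 40 CG pairs, a number reached by 1.31% of the 32851 promoters in the table, whose median was 6. The downstream Grb10 promoter and that of Peg3 held 8 CG pairs each, and the Mest promoter shown held 14. Igf2r came closest to the upstream Grb10 promoter, with 27. The letters TGCCGC, the core of the sequence bound by the imprint-maintaining protein ZFP57, were searched on both strands. They were found in 4 of the 13 windows (those of Copg2 and Plagl1 and 2 overlapping ones of Mest) against 8.68% of all promoters, and in neither Grb10 window. Counts per gene do not say which start site was used.

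The libraries held 9.11 M to 28.8 M counts (M, counts divided by 1000000). The 96 h gastruloid libraries held 15.0 M to 28.8 M and the 120 h ones 9.11 M to 11.9 M, so time and depth go together. Genes of the Hox clusters summed to 33.1 CPM (counts scaled to 1000000 per library) in wt mES cells and 0.896 in Hox-/- mES cells. The same sums were 859 and 25.8 CPM in endoderm cultures, 643 and 103 CPM in Activin A gastruloids at 96 h, and 1179 and 66.6 CPM at 120 h. Y-linked genes (Ddx3y, Eif2s3y, Uty and Kdm5d) summed to 105 to 177 CPM in the wt groups and to 0.0789 to 0.219 CPM in the Hox-/- groups. All 10 genes passed the filter on low counts in every comparison.

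Grb10 was present at the same level in mES cells of both genotypes and was far lower in Hox-/- cells in every differentiated culture. The gene (ENSMUSG00000020176) lies on chromosome 11 from 11930508 to 12038683 on the minus strand of mm10, 84.2 Mb from the Hoxb cluster. In mES cells it was at 44.0 and 46.5 CPM in wt and at 43.5 and 47.1 CPM in Hox-/- libraries, so the groups overlapped. In endoderm cultures the wt libraries were at 199, 202 and 214 CPM and the Hox-/- libraries at 20.4, 22.3 and 21.7 CPM. Every Hox-/- endoderm library therefore lay below the mES libraries, and every wt endoderm library lay above them.

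In gastruloids the gap in Grb10 was wider. At 96 h with Activin A the wt libraries were at 217 and 216 CPM and the Hox-/- libraries at 8.09 and 7.76 CPM. At 120 h the wt libraries were at 430 and 426 CPM and the Hox-/- libraries at 5.43 and 4.40 CPM, from 63 and 47 counts. Hox-/- means were 100%, 10.5%, 3.66% and 1.15% of the wt means in mES cells, endoderm cultures, 96 h and 120 h gastruloids. On the scale of the edgeR fit the log2 differences, Hox-/- minus wt, were 0.00 (SE 0.0733), -3.25 (SE 0.0598), -4.71 (SE 0.0634) and -6.33 (SE 0.0754). In mixed cultures, fewer cells that express a gene and less RNA per cell cannot be told apart.

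**Figure D1:**
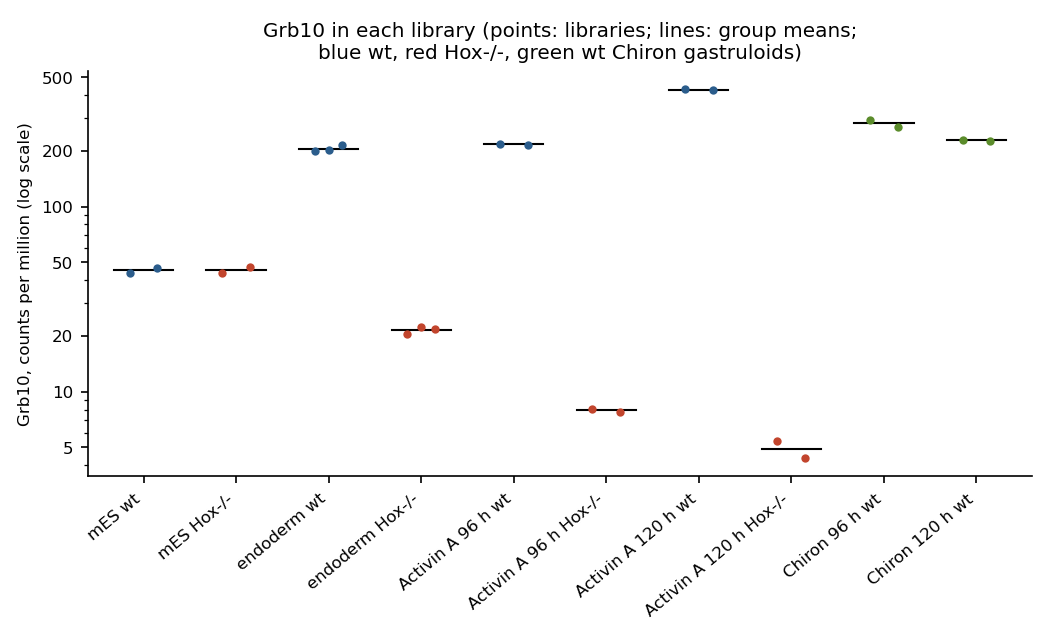
Grb10 level in CPM (log axis) in each of the 10 groups; points are libraries and lines are group means. Wt means are 45.2 in mES cells and 428 at 120 h with Activin A, and Hox-/- means are 45.3 and 4.91.

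The order of the groups by Grb10 level began with wt Activin A gastruloids at 120 h (428 ± 2.83 CPM, SD, n = 2). Chiron gastruloids followed, at 282 ± 17.0 CPM at 96 h and 228 ± 2.95 CPM at 120 h (n = 2 each). Next came wt Activin A gastruloids at 96 h (216 ± 0.649 CPM, n = 2) and wt endoderm (205 ± 7.83 CPM, n = 3), then Hox-/- and wt mES cells (45.3 ± 2.53 and 45.2 ± 1.79 CPM, n = 2 each). Hox-/- endoderm (21.5 ± 0.989 CPM, n = 3) and Hox-/- gastruloids at 96 h and 120 h (7.92 ± 0.234 and 4.91 ± 0.732 CPM, n = 2 each) came last. Only the mES groups overlapped among neighbours in this order. The highest mean was 87.1 times the lowest.

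Grb10 rose with differentiation and, with Activin A, with time in wt cells and fell with both in Hox-/- cells. These tests use libraries that also enter the genotype differences, so they do not stand apart from them. From mES cells to endoderm, Grb10 rose in wt (log2 fold change 2.06, SE 0.0620, adjusted p 6.21e-17) and fell in Hox-/- (log2 fold change -1.16, SE 0.0710, adjusted p 6.14e-12). These cultures come from separate tables, so culture and table cannot be told apart. From 96 h to 120 h with Activin A it rose in wt by 0.91 log2 units (SE 0.0381, adjusted p 1.34e-26). In Hox-/- gastruloids it changed by -0.70 (SE 0.149, adjusted p 4.38e-05).

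Grb10 also told the treatments apart in wt gastruloids, with an order that turned over between the times. The Chiron libraries were at 294 and 270 CPM at 96 h and at 230 and 226 CPM at 120 h. Activin A libraries lay below them at 96 h, by -0.44 on the log2 scale (SE 0.0482, adjusted p 3.13e-08), and above them at 120 h, by 0.86 (SE 0.0508, adjusted p 2.01e-12). The treatment difference thus moved by 1.30 log2 units between the times (SE 0.0700, adjusted p 4.58e-13). With Chiron the level fell with time (log2 fold change -0.41, SE 0.0499, adjusted p 2.03e-07).

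Igf2r, the receptor that clears IGF2, also acts on growth (chromosome 17, 12682406 to 12769664, minus strand). Its libraries were at 108 and 104 CPM in wt and 161 and 151 CPM in Hox-/- mES cells. In endoderm cultures they were at 249, 250 and 253 CPM in wt and at 130, 134 and 125 CPM in Hox-/-. The Hox-/- libraries thus lay above wt in mES cells (log2 difference 0.55, SE 0.0540) and below wt in endoderm (-0.94, SE 0.0462). Igf2r rose from mES cells to endoderm in wt (log2 fold change 1.12, SE 0.0524, adjusted p 7.51e-14) and fell in Hox-/- (-0.35, SE 0.0509, adjusted p 3.20e-06), as Grb10 did.

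In gastruloids Igf2r stayed in a narrow range, from 69.2 ± 1.47 to 95.9 ± 1.64 CPM over the 6 group means (SD, n = 2). With Activin A the Hox-/- libraries lay below wt at both times. They were at 72.3 and 81.5 against 90.6 and 85.6 CPM at 96 h, and at 70.3 and 68.2 against 97.1 and 94.8 CPM at 120 h. The wt time changes were 0.05 with either treatment (adjusted p 0.414 with Activin A and 0.494 with Chiron), and the treatment differences were 0.13 at 96 h (adjusted p 0.0528) and 0.11 at 120 h (adjusted p 0.194). The 96 h difference passed the threshold under 7 alternatives, among them RLE factors (0.15, adjusted p 0.0253), library totals alone (0.19, adjusted p 0.00495) and without replicate 2 of the Activin A group (0.20, adjusted p 0.0274) or replicate 1 of the Chiron group (0.20, adjusted p 0.00350). A fall with time in Hox-/- gastruloids (-0.16, SE 0.0577, adjusted p 0.0121) missed the threshold without replicate 2 of the 96 h group (adjusted p 0.223) or of the 120 h group (adjusted p 0.118). Airn, a noncoding RNA transcribed across Igf2r from the opposite strand, shares no exon base with it. Airn was at 19.3 to 22.2 CPM in wt endoderm and 18.7 to 34.8 CPM in Hox-/- endoderm, so these groups overlapped. In Activin A gastruloids at 120 h Airn was higher in Hox-/-, by a log2 difference of 0.58. At 96 h its log2 difference was 0.70, with a larger SE (0.486). A link between Airn and the Igf2r differences was not tested.

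Peg3 and Plagl1 encode zinc finger proteins. Peg3 (chromosome 7, 6703892 to 6730421, minus strand) was higher in Hox-/- in every culture. It was at 53.5 and 51.1 CPM in wt mES cells against 59.0 and 61.8 CPM in Hox-/-. In endoderm it was at 2173, 2169 and 2212 CPM in wt against 2628, 2923 and 2526 CPM in Hox-/-. The groups did not overlap in either culture.

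With Activin A, Peg3 was at 781 and 767 CPM in wt and at 951 in both Hox-/- libraries at 96 h. At 120 h it was at 1519 and 1479 CPM against 2330 and 2301 CPM. The log2 differences were 0.20 (SE 0.0671), 0.31 (SE 0.0571), 0.35 (SE 0.0371) and 0.74 (SE 0.0372) in mES cells, endoderm, 96 h and 120 h gastruloids. Peg3 rose with differentiation (5.27 in wt, SE 0.0723, adjusted p 1.16e-21) and with time in all 3 gastruloid series, by 0.88 in wt and 1.27 in Hox-/- with Activin A and 1.58 with Chiron (adjusted p 2.76e-26, 3.26e-33 and 1.77e-17).

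Plagl1 (chromosome 10, 13060504 to 13131694, plus strand), known for halting the cell cycle, was the one gene of the set with its highest levels in mES cells. It was at 149 CPM in both wt and at 220 and 226 CPM in Hox-/- mES libraries. It fell in endoderm in both genotypes (log2 fold change -1.71 in wt, SE 0.0570, adjusted p 3.10e-16, and -2.17 in Hox-/-, SE 0.0549, adjusted p 3.15e-18). The endoderm libraries of the genotypes overlapped, at 45.7 to 51.6 CPM in wt and 50.4 to 54.7 CPM in Hox-/-.

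In gastruloids Plagl1 was near its lowest at 96 h and rose by 120 h. With Activin A it went from 4.35 and 4.22 CPM to 38.5 and 35.9 CPM in wt (log2 fold change 3.04, SE 0.111, adjusted p 3.85e-29). In Hox-/- it went from 10.6 and 11.2 CPM to 36.8 and 32.2 CPM (1.65, SE 0.0963, adjusted p 6.72e-21). The Hox-/- libraries were thus above wt at 96 h (log2 difference 1.39, SE 0.127) and overlapped with wt at 120 h. With Chiron it rose from 13.7 ± 1.04 CPM (SD, n = 2) to 75.7 and 78.3 CPM (2.37, SE 0.0784, adjusted p 1.56e-17), and Activin A libraries were lower than Chiron at both times (-1.75 and -1.10, adjusted p 1.56e-12 and 6.18e-11).

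Peg10, a gene derived from a retrotransposon and needed in the placenta, and Sgce, which encodes epsilon-sarcoglycan, are neighbours on chromosome 6 with start sites facing away from each other. Peg10 runs from 4747306 to 4760517 on the plus strand and Sgce from 4674350 to 4747207 on the minus strand. Their levels largely moved together, with both lowest in mES cells. Over the 10 groups Pearson's r between them was 0.98, on log2(CPM + 1) of the group means. This is a description, since the groups share libraries' depth and culture.

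Peg10 was at 40.7 and 38.6 CPM in wt mES cells and at 20.1 and 24.8 CPM in Hox-/- mES cells. Endoderm libraries were at 2541, 2640 and 2893 CPM in wt and at 1578, 1647 and 1488 CPM in Hox-/-. Hox-/- was below wt in both, by a log2 difference of -0.83 (SE 0.0905) and -0.77 (SE 0.0606). Sgce was at 1.46 and 1.01 CPM against 0.822 and 1.18 CPM in mES cells, an overlap, and at 60.5, 64.3 and 64.8 CPM against 50.2, 55.3 and 55.7 CPM in endoderm. Both rose strongly with differentiation in wt (5.97, SE 0.0884, adjusted p 3.30e-21 for Peg10, and 5.53, SE 0.140, adjusted p 4.49e-18 for Sgce).

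In Activin A gastruloids the order of the genotypes turned over between the times for both genes. Peg10 was at 430 and 418 CPM in wt and 690 and 716 CPM in Hox-/- at 96 h, then at 667 and 632 CPM in wt and 521 and 512 CPM in Hox-/- at 120 h. Sgce was at 21.3 ± 0.944 CPM (SD, n = 2) against 26.9 and 27.2 CPM at 96 h, then at 32.0 and 34.7 CPM against 18.9 and 17.9 CPM at 120 h. The log2 differences went from 0.78 to -0.22 for Peg10 and from 0.40 to -0.75 for Sgce. With time, both rose in wt (0.54 and 0.57, adjusted p 2.44e-17 and 2.28e-08) and fell in Hox-/- (-0.46 and -0.57, adjusted p 5.97e-15 and 1.58e-07).

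Between treatments the pair passed the test at 120 h and not at 96 h. At 96 h the log2 differences, Activin A minus Chiron, were 0.06 for Peg10 and 0.03 for Sgce (adjusted p 0.340 and 0.734). Peg10 passed there with library totals alone (0.12, adjusted p 0.0434) and without Chiron replicate 2 (0.12, adjusted p 0.0485). At 120 h both were higher with Activin A, by 0.94 for Peg10 (SE 0.0541, adjusted p 1.18e-12) and 0.48 for Sgce (SE 0.0964, adjusted p 3.17e-04). The change of the difference was 0.88 for Peg10 (adjusted p 1.67e-09) and 0.44 for Sgce (adjusted p 0.00694). With Chiron, Peg10 fell with time (-0.36, adjusted p 3.81e-06). Sgce did not, at 19.3 and 20.4 CPM at 96 h and 22.3 and 24.1 CPM at 120 h. Its change missed the threshold, but was a rise that passed with library totals alone (0.22, adjusted p 0.0450).

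Mest, which encodes a hydrolase-like protein of mesoderm, and Copg2, a subunit of the coat of transport vesicles, are also neighbours on chromosome 6. Mest runs from 30723547 to 30748465 on the plus strand and Copg2 from 30747554 to 30896794 on the minus strand, and 912 exon bases are shared. The kit kept strand, but whether the counting used it is not given in the sources used here, so counts of both are uncertain where they overlap. The authors' FPKM list Copg2 at 0 in 11 libraries in which 714 to 1264 counts were given, so its FPKM were not used.

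Mest rose with differentiation and with time. It was at 36.3 and 34.4 CPM in wt and 35.5 and 37.7 CPM in Hox-/- mES cells, and at 507, 531 and 538 CPM in wt and 727, 720 and 724 CPM in Hox-/- endoderm. Chiron gastruloids went from 227 and 245 CPM at 96 h to 2229 and 1964 CPM at 120 h, a rise of 3.04 log2 units (SE 0.0630, adjusted p 3.66e-21). Hox-/- was thus above wt in endoderm (log2 difference 0.47, SE 0.0471).

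With Activin A, Mest was at 301 and 307 CPM in wt and 209 and 228 CPM in Hox-/- at 96 h, and at 857 and 797 CPM in wt and 625 and 607 CPM in Hox-/- at 120 h. Hox-/- lay below wt at both times (-0.43, SE 0.0425, and -0.31, SE 0.0411). Activin A libraries were higher than Chiron at 96 h (0.30, SE 0.0597, adjusted p 1.46e-04) and lower at 120 h (-1.39, SE 0.0595, adjusted p 3.70e-15). The 96 h difference was 0.26 on the log2(FPKM + 1) scale and missed the threshold there (limma, adjusted p 0.0579).

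Copg2 varied least of the 10 genes. Its group means ran from 61.4 ± 1.96 CPM in Hox-/- endoderm (n = 3) to 106 ± 2.59 CPM in wt Activin A gastruloids at 96 h (n = 2), a ratio of 1.73. Hox-/- was below wt in endoderm, at 59.5, 61.1 and 63.4 CPM against 88.4, 83.4 and 83.5 CPM (log2 difference -0.46, SE 0.0533). It fell with time in all 3 gastruloid series, by -0.44, -0.54 and -0.36 (adjusted p 1.07e-10, 7.52e-13 and 9.45e-06). The treatment differences of 0.09 at 96 h and -0.01 at 120 h missed the threshold (adjusted p 0.138 and 0.908). The one at 96 h passed with library totals alone (0.15, adjusted p 0.0149), with at least 10 counts in every library (0.14, adjusted p 0.0214) and without Chiron replicate 1 (0.13, adjusted p 0.0389).

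Nnat and Slc38a4 encode membrane proteins. Nnat (chromosome 2, 157560078 to 157562522, plus strand), which encodes neuronatin, a small proteolipid best known from neurons, lies inside Blcap on the opposite strand with no shared exon base. It spanned the widest range, 1216 times between the highest and lowest group means. It was at 0.930 and 0.544 CPM in wt and 1.05 and 0.924 CPM in Hox-/- mES cells, an overlap. In endoderm it was at 39.3, 36.6 and 43.1 CPM in wt and 127, 116 and 113 CPM in Hox-/-, with no overlap (log2 difference 1.59, SE 0.0680).

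In gastruloids Nnat rose with time in every series. With Activin A it went from 82.2 and 86.6 CPM to 782 and 847 CPM in wt (log2 fold change 3.19, SE 0.0445, adjusted p 6.81e-47). In Hox-/- it went from 112 and 114 CPM to 650 and 618 CPM (2.47, SE 0.0442, adjusted p 1.05e-42). The Hox-/- libraries were above wt at 96 h (0.48, SE 0.0476) and below at 120 h (-0.25, SE 0.0396). Chiron libraries went from 298 and 252 CPM to 907 and 886 CPM (1.60, SE 0.0621, adjusted p 2.82e-16), above Activin A at 96 h (-1.76, SE 0.0655, adjusted p 5.34e-17). The 120 h difference was small (-0.19, SE 0.0607, adjusted p 0.0148) and missed the threshold without replicate 1 of the Chiron group (adjusted p 0.112) or of the Activin A group (adjusted p 0.216).

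Slc38a4, an amino acid transporter with a known role in the placenta (chromosome 15, 96994820 to 97055956, minus strand), is the member closest to a Hox cluster, 5.87 Mb from Hoxc. It was at 187 and 192 CPM in wt and 200 and 204 CPM in Hox-/- mES cells, and at 455, 477 and 472 CPM in wt and 552, 556 and 567 CPM in Hox-/- endoderm. The rise with differentiation was 1.19 in wt (SE 0.0477, adjusted p 6.60e-15) and 1.38 in Hox-/- (SE 0.0479, adjusted p 4.52e-16). Hox-/- was above wt in endoderm by 0.26 (SE 0.0460).

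With Activin A, Slc38a4 moved in opposite directions in the genotypes. It fell from 80.3 and 80.4 CPM to 56.1 and 55.1 CPM in wt (-0.61, SE 0.0626, adjusted p 3.82e-12) and rose from 61.7 and 52.2 CPM to 99.7 and 93.1 CPM in Hox-/- (0.73, SE 0.0585, adjusted p 9.24e-16). Hox-/- was thus below wt at 96 h (-0.43, SE 0.0541) and above it at 120 h (0.91, SE 0.0662). With Chiron it fell (-0.81, SE 0.0875, adjusted p 2.75e-08). Activin A libraries were above Chiron by 0.23 at 96 h (adjusted p 0.0106), which missed the threshold without Chiron replicate 2 (0.10, adjusted p 0.179), and by 0.41 at 120 h (adjusted p 0.00145).

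**Figure D2:**
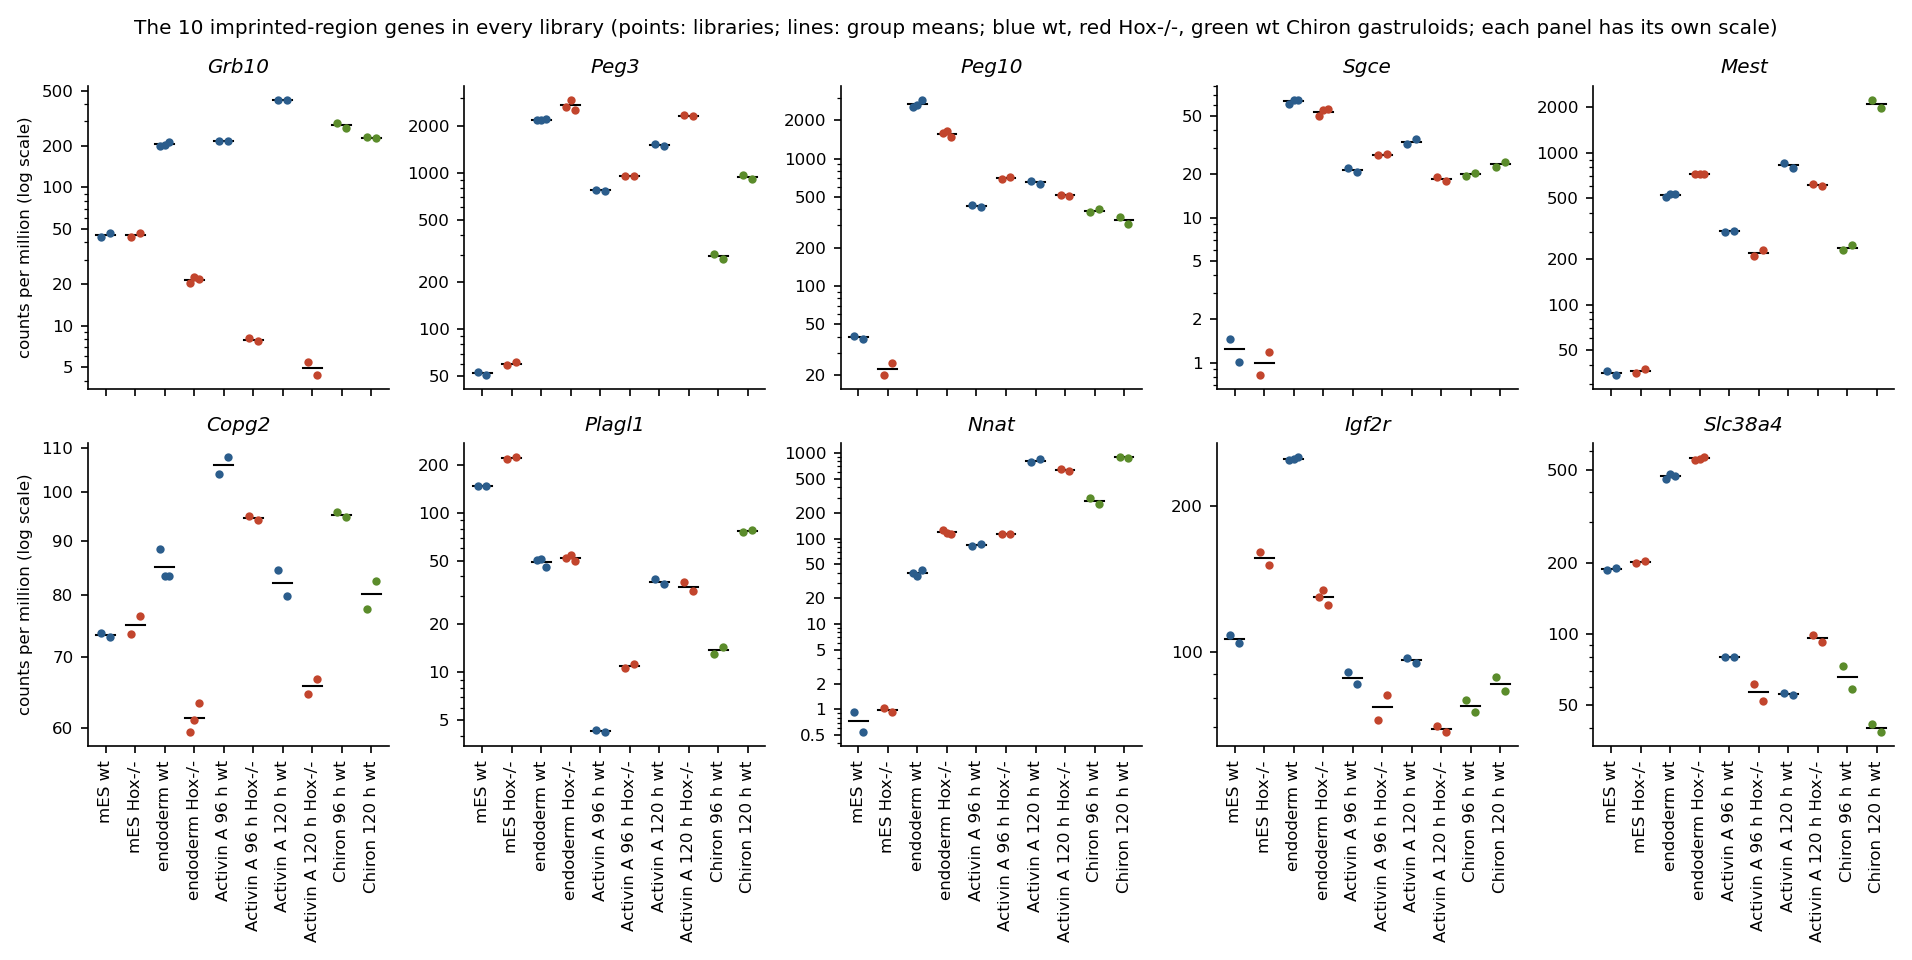
Level of each gene in CPM (log axes, one scale per panel) in the 10 groups; points are libraries and lines are group means. Grb10 is the only one of the 10 panels in which all differentiated wt libraries lie above and all differentiated Hox-/- libraries below the mES libraries, and Plagl1 is highest in mES cells, with means of 149 and 223.

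Levels were compared between genes per transcript length, as FPKM. In wt endoderm the group means were 389 for Peg10, 236 for Peg3, 229 for Mest and 141 for Slc38a4. Grb10 (37.9), Sgce (36.3), Nnat (34.4) and Igf2r (25.6) were lower, and Plagl1 was at 9.18. In Chiron gastruloids at 120 h Mest (753) and Nnat (713) led. In Hox-/- Activin A gastruloids at 120 h Grb10 was at 0.858 FPKM, the lowest of the 9 genes with usable FPKM, against 71.1 FPKM in wt.

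Counts of the 10 genes by direction are given beside the share of all tested genes that passed the same threshold (edgeR, adjusted p under 0.05). The genotype counts follow from how the list was chosen, and nothing is read from them. In mES cells 3 genes were higher and 1 lower in Hox-/- (12.4% and 10.8% of all genes). By limma 1 gene was called there on log2(FPKM + 1), 1 on log2(FPKM + 0.1) and 0 on log2(FPKM + 1) without a filter. In endoderm 4 were higher and 5 lower (23.1% and 23.1%). In Activin A gastruloids 5 were higher and 5 lower at 96 h (22.2% and 16.7%), and 2 were higher and 7 lower at 120 h (24.9% and 25.5%). The genotype difference moved up with time for 2 genes and down for 6 (18.7% and 20.2%), and between mES cells and endoderm it moved up for 3 and down for 4 (11.6% and 12.5%). With library totals alone in place of TMM factors, 42.55% instead of 56.97% of all calls at 96 h and 34.56% instead of 49.42% at 120 h were higher in Hox-/-. Median log2 differences of the 10 genes were 0.07, -0.07, 0.12 and -0.23 in the 4 cultures, against 0.00, 0.00, 0.03 and -0.02 over all genes.

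**Figure D3:**
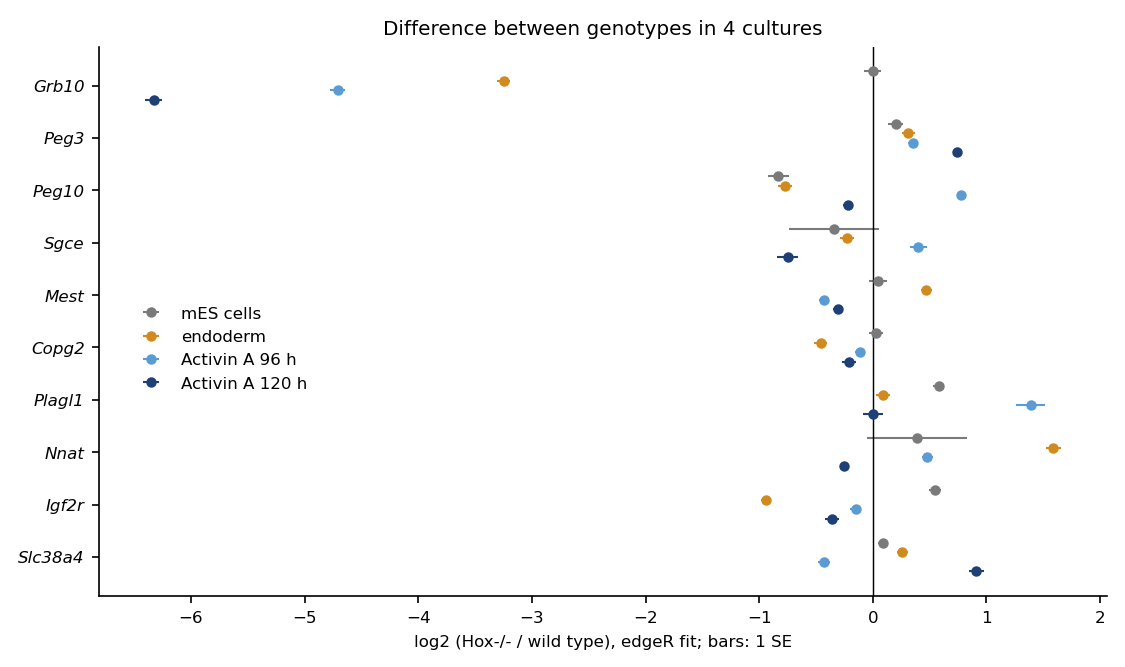
Log2 difference, Hox-/- minus wt, of each gene in 4 cultures; points are edgeR estimates and bars 1 SE. Grb10 lies between -6.33 and -3.25 in the differentiated cultures, and the other 9 genes lie between -0.94 and 1.59 in all 4 cultures.

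The median change of the set was largest with differentiation. From mES cells to endoderm 8 genes rose and 1 fell in wt, beside 41.6% and 38.3% of all genes, with a median log2 change of 2.92 against 0.07. In Hox-/- 6 rose and 4 fell (42.7% and 37.9%), with a median of 2.80 against 0.10. Peg3, Peg10, Sgce, Mest and Nnat each rose by at least 3.78 in both genotypes. Grb10 and Igf2r rose in wt and fell in Hox-/-, and Copg2 was at 0.09 in wt (adjusted p 0.133) and fell in Hox-/- (-0.37, adjusted p 6.22e-06). The wt value for Copg2 passed with library totals alone (0.21, adjusted p 0.00183) and with at least 10 counts in every library (0.15, adjusted p 0.0124).

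With time, 7 genes rose and 2 fell in wt Activin A gastruloids (37.2% and 37.8% of all genes; median 0.73 against 0.00). In Hox-/- 5 rose and 5 fell (34.9% and 37.6%; median 0.29 against -0.01), and with Chiron 4 rose and 4 fell (28.5% and 33.2%; median 0.08 against -0.04). Between treatments 3 were higher and 3 lower with Activin A at 96 h (31.3% and 30.2%), and 5 higher and 3 lower at 120 h (20.3% and 21.6%). The treatment difference moved up with time for 5 genes and down for 2 (21.7% and 18.0%).

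**Figure D4:**
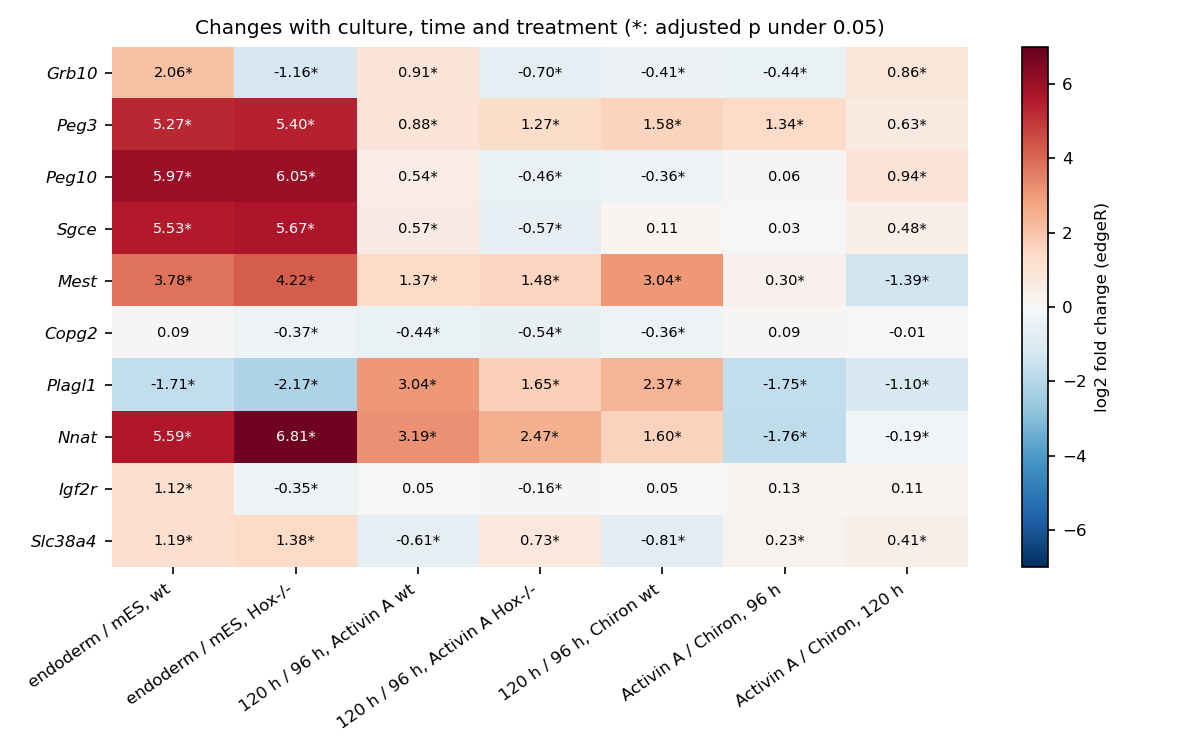
Log2 fold change of each gene in 7 tested comparisons (columns); colour gives size and direction, and an asterisk an adjusted p under 0.05 by edgeR. Peg10 rises by 5.97 and 6.05 with differentiation, and Grb10 has opposite signs in the genotypes with differentiation (2.06 and -1.16) and with time (0.91 and -0.70). These Grb10 tests share libraries with the genotype differences that chose the gene, so they do not stand apart from them.

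Marker lists differed with the genotype as well, and their part in the differences above was not tested. The 12 definitive endoderm markers summed to 1974 to 2043 CPM in wt and 133 to 139 CPM in Hox-/- Activin A gastruloids at 120 h. At 96 h they summed to 1770 to 2010 CPM against 668 to 681 CPM, and in endoderm cultures to 1392 to 1410 CPM against 725 to 779 CPM, with 1 of the 12 under 1 CPM in Hox-/-. Undifferentiated mES cells already held 897 to 908 CPM in wt and 762 to 777 CPM in Hox-/-, with 5 and 6 of the 12 under 1 CPM. The Hox-/- endoderm sum was thus no higher than that of Hox-/- mES cells. The 8 presomitic and somitic mesoderm markers went the other way at 120 h, at 548 to 557 CPM in wt and 1450 to 1456 CPM in Hox-/-. The 10 pluripotency markers summed to 7802 to 7859 CPM in wt and 7458 to 7554 CPM in Hox-/- mES cells, 853 to 1000 and 249 to 271 CPM in endoderm, and 129 to 130 and 45.3 to 45.6 CPM in 120 h Activin A gastruloids. In the last group 3 of the 10 were under 1 CPM.

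The other marker lists were lower or more mixed. The 7 neural markers summed to 91.2 to 91.9 CPM in wt and 29.7 to 31.0 CPM in Hox-/- gastruloids at 120 h, with 4 of 7 under 1 CPM in Hox-/-. Their sum was also high in mES cells, at 99.5 to 103 CPM in wt and 84.7 to 94.7 CPM in Hox-/-, with 5 of 7 under 1 CPM in each. The 7 caudal progenitor markers summed to 2798 to 2934 and 3916 to 3976 CPM at 96 h. The sums of the 8 extraembryonic endoderm markers were also lower in Hox-/- in the differentiated cultures. They averaged 214 CPM in wt and 75.5 CPM in Hox-/- endoderm. With Activin A they averaged 23.1 and 3.74 CPM at 96 h, and 96.4 and 4.87 CPM at 120 h. In mES cells they averaged 4.38 and 5.48 CPM. At 120 h 1 marker was called higher and 6 lower (24.9% and 25.5% of all genes), with a median log2 difference of -4.77. In Hox-/- 6 of the 8 were under 1 CPM there. Group means of the sums ran from 68.5 to 403 CPM for the 6 trophoblast markers. They ran from 4.56 to 183 CPM for the 7 cardiac and vascular markers and from 2.11 to 433 CPM for the 6 feeder and fibroblast markers. The feeder and fibroblast sum was highest in Hox-/- endoderm, at 424 to 447 CPM against 181 to 251 CPM in wt. Of the 5 feeder and fibroblast markers tested there, 1 (Col1a1) was called higher and 1 (Thy1) lower, and the median log2 difference was -0.17.

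Around Grb10, the next gene upstream also differed between genotypes, but at 120 h most. Cobl, an actin nucleator (chromosome 11, 12236608 to 12464960), was at 319 and 325 CPM in wt and 315 and 314 CPM in Hox-/- mES cells. It was at 23.0 and 25.3 CPM in wt and 0.690 and 0.374 CPM in Hox-/- Activin A gastruloids at 120 h (log2 difference -5.35, SE 0.229). In endoderm and 96 h gastruloids the differences were -0.57 (SE 0.102) and -0.61 (SE 0.0995). Cobl fell by 4.73 log2 units with differentiation in wt (adjusted p 3.28e-22), where Grb10 rose. On the other side of Grb10, the catecholamine enzyme gene Ddc was at 11.8 ± 1.67 CPM (SD, n = 2) in wt and 5.00 and 6.36 CPM in Hox-/- at 120 h (-0.94, SE 0.175), and Fignl1 differed by at most 0.17 in size in the 4 cultures.

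Next to Peg3, Zim1, another imprinted zinc finger gene and a maternally expressed one (chromosome 7, 6671269 to 6696450), was lower in Hox-/- where Peg3 was higher. It was at 35.9, 35.7 and 32.2 CPM in wt and 0.852, 1.05 and 1.64 CPM in Hox-/- endoderm (log2 difference -4.87, SE 0.146). In Activin A gastruloids it was at 2.89 and 2.87 CPM against 1.08 and 0.736 CPM at 96 h, and at 24.4 and 22.5 CPM against 1.72 and 1.03 CPM at 120 h (-3.96, SE 0.204). Zim1 rose with time in wt (2.95, SE 0.146, adjusted p 1.21e-23) and with Chiron (2.73, SE 0.240, adjusted p 9.43e-10), and its difference in Hox-/- missed the threshold (0.55, SE 0.366, adjusted p 0.171). Usp29, which starts beside Peg3 in the opposite direction, was at 3.92 and 4.20 CPM in wt and 9.26 and 11.8 CPM in Hox-/- mES cells (1.37, SE 0.172), and Zfp264 was at 26.9 and 27.2 CPM in wt mES cells and at 0.811 to 1.78 CPM in wt and 0 to 0.0630 CPM in Hox-/- endoderm.

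Of the 38 pairs of a gene of the set and a neighbour within 250 kb that reached 10 CPM, 11 had a genotype difference of at least 1 log2 unit in some culture. The share of all genes with such a difference was not counted, so nothing is read from this number. Ppp1r9a and Col1a2 lie beside both Peg10 and Sgce and are counted with each. Ppp1r9a was at 104 and 107 CPM in wt and 28.1 and 27.5 CPM in Hox-/- gastruloids at 120 h (-1.81, SE 0.0674). Col1a2 was at 11.7 and 10.5 CPM against 2.50 and 2.62 CPM there (-2.01, SE 0.199). Col1a2 was the other way round at 96 h, at 6.71 and 6.94 CPM in wt and 16.8 and 14.8 CPM in Hox-/- (1.28, SE 0.109). Beside Slc38a4, Pced1b was at 17.7 and 15.5 CPM in wt and 5.34 and 4.96 CPM in Hox-/- at 120 h (-1.57, SE 0.148), and Gm32885 was at 1.51 and 0.549 CPM against 0.0862 and 0 CPM. Beside Igf2r, Slc22a3, with its largest estimate at 96 h (1.20, SE 0.835) from libraries under 0.3 CPM, was at 7.06 to 7.44 CPM in wt and 10.2 to 10.5 CPM in Hox-/- endoderm. No neighbour of Mest, Copg2, Plagl1 or Nnat passed this limit.

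Of a list of 50 other imprinted genes, 39 were tested in endoderm, with 11 higher and 11 lower in Hox-/- (23.1% and 23.1% of all genes). At 120 h 45 were tested, with 13 higher and 19 lower (24.9% and 25.5%). In mES cells 33 were tested, with 10 higher and 5 lower (12.4% and 10.8%), and at 96 h 45, with 14 higher and 11 lower (22.2% and 16.7%). The medians were -0.01, 0.05, -0.02 and -0.12 in mES cells, endoderm, 96 h and 120 h gastruloids, near those of all genes. Cobl, Ddc, Zim1, Usp29, Ppp1r9a, Slc22a3 and Airn, described above, belong to this list.

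H19, a maternally expressed noncoding RNA from the Igf2 locus, was higher in Hox-/- in all differentiated cultures. It was at 342, 387 and 423 CPM in wt and 4047, 4228 and 4181 CPM in Hox-/- endoderm. In Activin A gastruloids it was at 10.4 and 9.15 CPM against 42.2 and 33.8 CPM at 96 h and at 277 in both wt libraries against 2279 and 2342 CPM at 120 h. In mES cells the libraries overlapped, at 1.55 to 3.39 CPM. Igf2 itself, the paternally expressed growth factor, overlapped in endoderm, at 42.3 to 81.8 CPM in wt and 40.2 to 56.6 CPM in Hox-/-.

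Cdkn1c, a maternally expressed inhibitor of the cell cycle, was lower in every Hox-/- library than in the wt libraries of the same culture. It was at 19.3, 18.4 and 23.5 CPM in wt and 5.57, 5.11 and 5.98 CPM in Hox-/- endoderm (log2 difference -1.87, SE 0.122). With Activin A it was at 76.8 and 75.3 CPM against 7.25 and 5.82 CPM at 96 h (-3.46, SE 0.0778), and at 101 and 99.1 CPM against 15.5 and 15.0 CPM at 120 h (-2.60, SE 0.0787). The maternally expressed RNAs Meg3, Rian and Mirg of the Dlk1 region were higher in Hox-/- mES cells, by 0.75, 0.82 and 0.62. Rian was higher in endoderm (0.87, SE 0.0548) and at 96 h (0.87, SE 0.0395), and Meg3 was at 1504 and 1509 CPM in wt and 1506 and 1471 CPM in Hox-/- at 120 h, with overlap.

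The other imprinted genes rose more often than they fell with differentiation: 28 of 42 tested rose and 10 fell in wt (41.6% and 38.3% of all genes; median 0.92 against 0.07), and 27 rose and 8 fell in Hox-/- (42.7% and 37.9%; median 0.89 against 0.10). Gnas rose by 3.34 in wt (SE 0.0618, adjusted p 6.37e-20), H19 by 7.12 (SE 0.148, adjusted p 2.83e-19) and Asb4 from 0.304 to 61.3 CPM. With time in wt Activin A gastruloids 28 of 45 rose and 10 fell (37.2% and 37.8% of all genes), led by H19 (4.76, SE 0.0688, adjusted p 2.98e-46) and Igf2 (4.39, SE 0.110, adjusted p 4.78e-36), while Snrpn fell (-1.67, SE 0.0483, adjusted p 1.97e-33). In Hox-/- 22 of 45 rose and 14 fell (34.9% and 37.6%), and with Chiron 21 of 47 rose and 11 fell (28.5% and 33.2%). Between treatments 18 of 47 were higher and 14 lower with Activin A at 96 h (31.3% and 30.2%), and 22 higher and 10 lower at 120 h (20.3% and 21.6%).

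**Figure D5:**
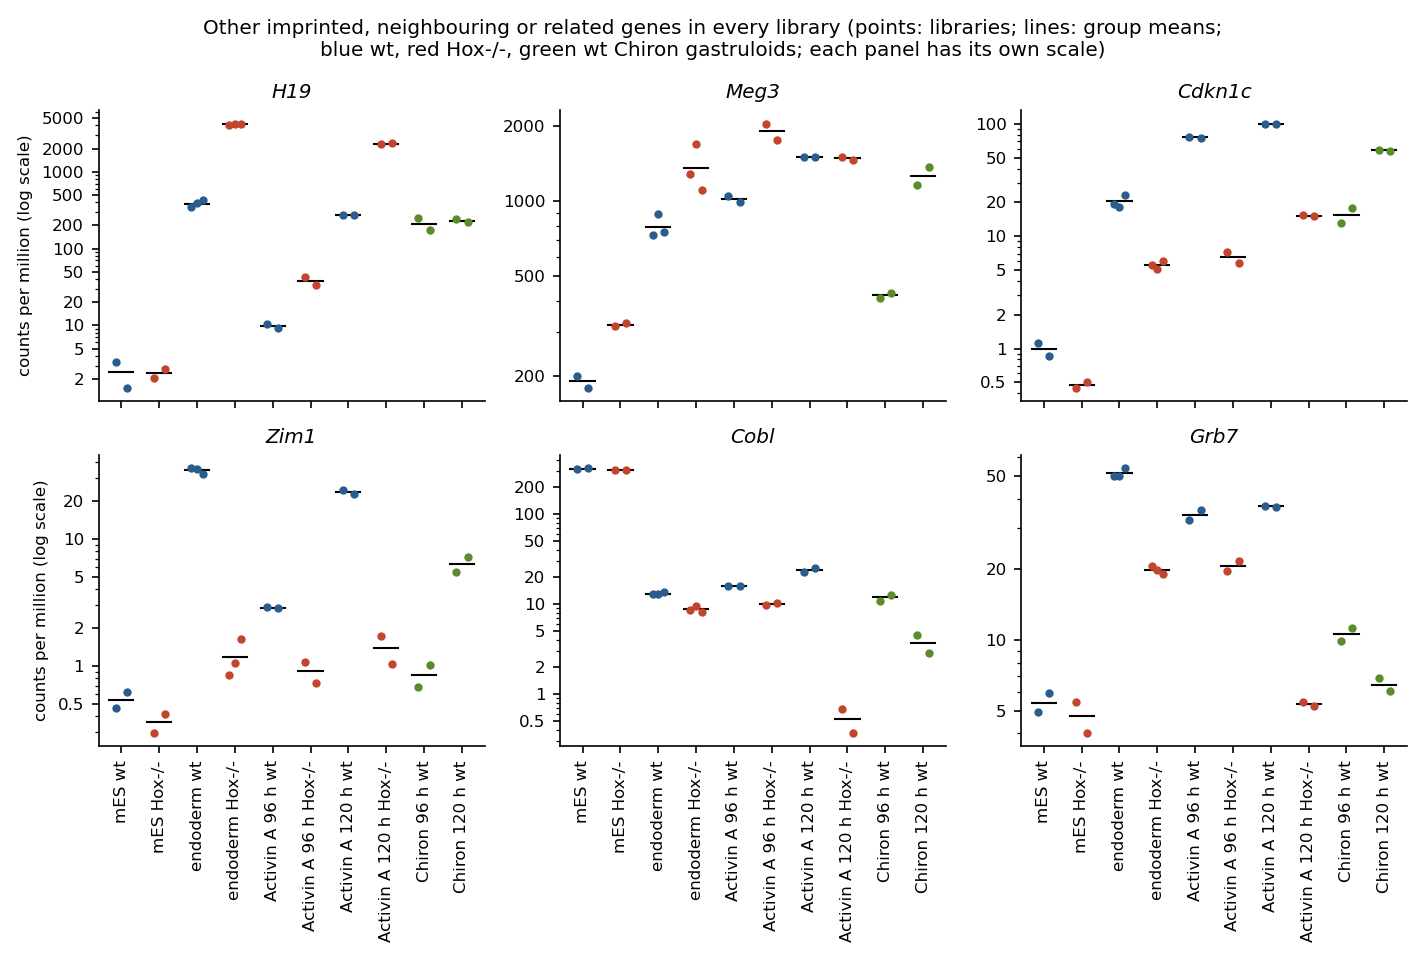
Levels of 6 further genes in CPM (log axes, one scale per panel) in the 10 groups; points are libraries and lines are group means. H19 is higher in Hox-/- endoderm and gastruloids, Cdkn1c, Zim1 and Grb7 are lower there, and Cobl drops to 0.532 in Hox-/- gastruloids at 120 h.

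Among 25 genes of insulin and IGF signalling, the pathway that Grb10 acts on, the other members of its adaptor family were also lower in differentiated Hox-/- cultures. Grb7 was at 50.1, 49.9 and 53.8 CPM in wt and 20.7, 19.9 and 19.1 CPM in Hox-/- endoderm. At 96 h it was at 32.3 and 35.8 CPM against 19.7 and 21.6 CPM. At 120 h it was at 37.3 and 37.0 CPM against 5.43 and 5.24 CPM (log2 difference -2.69, SE 0.126). Grb14 was low throughout, at 3.08 to 3.96 CPM in wt and 0.738 to 1.25 CPM in Hox-/- endoderm, at 5.15 and 5.58 CPM against 1.87 CPM in both libraries at 96 h, and at 3.35 and 3.84 CPM against 0.345 and 0.374 CPM at 120 h (-3.19, SE 0.417). Irs4, a substrate of the receptors, was at 50.9, 44.4 and 44.5 CPM against 10.6, 9.90 and 9.20 CPM in endoderm and at 43.0 and 46.7 CPM against 3.45 and 3.46 CPM at 120 h (-3.58, SE 0.147).

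Over the list, 7 of 25 were higher and 5 lower in Hox-/- endoderm (23.1% and 23.1% of all genes), 6 and 5 at 96 h (22.2% and 16.7%), 13 and 7 at 120 h (24.9% and 25.5%), and 5 and 2 of 20 tested in mES cells (12.4% and 10.8%). The medians were 0.06, 0.00, 0.23 and 0.03. The receptor gene Igf1r was at 115 and 117 CPM in wt and 140 and 133 CPM in Hox-/- at 120 h. With differentiation 13 rose and 7 fell in wt (41.6% and 38.3% of all genes), among them Akt1 (2.60, SE 0.0659, adjusted p 4.80e-18) and Igf1r (2.70, SE 0.0870, adjusted p 1.89e-16), and 13 rose and 8 fell in Hox-/- (42.7% and 37.9%). With time 14 rose and 8 fell in wt (37.2% and 37.8%) and 14 rose and 7 fell in Hox-/- (34.9% and 37.6%) with Activin A, and 9 rose and 10 fell with Chiron (28.5% and 33.2%). With Activin A against Chiron 7 were higher and 17 lower at 96 h (31.3% and 30.2%) and 6 higher and 11 lower at 120 h (20.3% and 21.6%), where Irs4 (4.94, SE 0.192, adjusted p 6.94e-16) and Grb7 (2.46, SE 0.126, adjusted p 1.26e-13) were higher.

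Of 20 genes of imprint maintenance and DNA methylation, some differed in each direction. In Hox-/- 3 were higher and 7 lower of 19 tested in mES cells (12.4% and 10.8% of all genes), 4 and 6 of 19 in endoderm (23.1% and 23.1%), 4 and 6 of 18 at 96 h (22.2% and 16.7%), and 8 and 6 of 18 at 120 h (24.9% and 25.5%). The medians were -0.11, -0.05, 0.03 and 0.08. Zfp57, which encodes the zinc finger protein that keeps imprints methylated, was at 469 and 465 CPM in wt and 417 and 447 CPM in Hox-/- mES cells. In Activin A gastruloids it was at 63.9 and 58.3 CPM against 32.3 and 28.9 CPM at 96 h and at 99.9 and 104 CPM against 41.0 and 44.7 CPM at 120 h (-1.14, SE 0.0667). The DNA methyltransferase gene Dnmt3b was at 208, 197 and 194 CPM in wt and 91.4, 92.1 and 88.7 CPM in Hox-/- endoderm (-1.13, SE 0.0478).

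With differentiation 13 of 19 genes of this list fell and 5 rose in wt (38.3% and 41.6% of all genes; median -0.57 against 0.07), and 14 fell and 3 rose in Hox-/- (37.9% and 42.7%; median -1.01 against 0.10). Zfp57 fell by 2.59 log2 units in wt (SE 0.0708, adjusted p 1.49e-17), and Uhrf1, which recruits the maintenance methyltransferase, fell by 2.24 (SE 0.0482, adjusted p 4.99e-19). With time 5 of 18 rose and 9 fell in wt (37.2% and 37.8%) and 9 rose and 4 fell in Hox-/- (34.9% and 37.6%) with Activin A, and 7 of 19 rose and 5 fell with Chiron (28.5% and 33.2%). With Activin A against Chiron 3 of 19 were higher and 11 lower at 96 h (31.3% and 30.2%), and 2 higher and 9 lower at 120 h (20.3% and 21.6%). No DNA methylation was measured in these libraries.

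The genes whose pattern over the 10 groups was most like that of Grb10 were Haglr, Hoxa5, Hoxb3os, Hoxa3 and Hoxb2, with Pearson's r of 0.900, 0.893, 0.891, 0.890 and 0.882 on log2(CPM + 1) of the group means. They were ranked among 11721 genes that reached 10 CPM in a group. All 5 lie in Hox clusters, at 0 to 0.266 CPM in the Hox-/- groups, so the likeness contains the Hox-/- genotype itself. Hoxb3os, for example, was at 145 CPM in wt and 0.137 CPM in Hox-/- Activin A gastruloids at 120 h. By Spearman's rho only 1 of the 5 stayed among the first 5. Within the set, Grb10 had r from -0.20 (Slc38a4) to 0.51 (Copg2) with the other genes, and Igf2r and Slc38a4 had r of 0.79. Peg3, Peg10, Sgce, Mest and Nnat, all lowest in mES cells, had r of 0.67 to 0.98 with each other. Peg3, Peg10 and Sgce were lower in Chiron gastruloids at 120 h than in wt endoderm (327 against 2692 CPM for Peg10). Mest and Nnat were higher there (896 against 39.7 CPM for Nnat). No r was computed without the mES groups. The r values are over 10 groups that share culture and depth, and are given as a description.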

How the data were processed

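Per the labels' protocols, mRNA libraries came from poly-A selection with a kit that keeps strand. Whole-number counts per Ensembl gene, not normalized, and FPKM values (fragments scaled to transcript length and library total) were deposited by the authors. Per the submitters' processing notes, cutadapt 1.16, STAR and Cufflinks 2.2.1 were used with build mm10; the counting tool and its strand setting are not given in the sources used here. The 22 libraries were assigned to 10 groups from their titles. CPM are counts scaled to the library total. Counts were tested with edgeR 4.0.16 (filterByExpr, TMM, a quasi-likelihood test, Benjamini-Hochberg adjustment over all genes, threshold 0.05) in 14 comparisons. The method was also run on simulated counts with the same spread for every gene and large changes only. That run does not bear on small changes. mES cells and endoderm were each fitted alone for genotype and together for differentiation, and the 4 groups of each gastruloid table together. The SE is the log2 fold change divided by the root of F. Alternatives used RLE factors or library totals alone, other filters, a replicate block, DESeq2 1.42.0, limma 3.58.1 on log2(FPKM + 1) or log2(FPKM + 0.1), fewer groups, and each library left out.

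Members and lists were chosen with earlier results of these data known. Besides the 10 genes, the text names neighbours within 250 kb that reached 10 CPM and differed by 1 log2 unit between genotypes, up to 4 genes per list by smallest p, and the 5 genes most like Grb10; Ddc, Fignl1, Airn, Igf2, Igf1r, Meg3, Grb14, Zfp57, Dnmt3b and Uhrf1, where outside this rule, were added after their values were seen. Positions are those of the deposited tables, 1-based, with exons from GENCODE vM21. Replicates of each group differed by more than counting noise (chi-square per degree of freedom 1.37 to 10.3).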

Additional observations from a re-analysis of the deposited data

Results flagged for a closer look

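The difference between Activin A and Chiron gastruloids moved between 96 h and 120 h for 7 of the 10 genes, by the edgeR test of treatment by time. It moved up for 5 and down for 2, beside 21.7% and 18.0% of all genes tested. On the log2 scale the treatment effect at 120 h minus that at 96 h was 1.30 for Grb10 (adjusted p 4.58e-13), 0.88 for Peg10 (adjusted p 1.67e-09), 0.44 for Sgce (adjusted p 0.00694), 0.65 for Plagl1 (adjusted p 6.18e-04; 0.09 by limma on log2(FPKM + 1), adjusted p 0.574) and 1.58 for Nnat (adjusted p 1.07e-12). It was -0.72 for Peg3 (adjusted p 2.97e-08) and -1.69 for Mest (adjusted p 1.00e-13). Depth differs between the times, and its part was not tested.

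Endoderm was set against mES cells, and 120 h against 96 h with Activin A. In one of these pairs the order of the genotypes was opposite for 5 genes, with every Hox-/- library above wt in one culture and below it in the other. The share of all genes that did so was not counted, so nothing is read from this number. The genotype effect of Igf2r in endoderm minus that in mES cells was -1.49. In Activin A gastruloids the genotype effect at 120 h minus that at 96 h was -1.0 for Peg10, -1.15 for Sgce, -0.72 for Nnat and 1.34 for Slc38a4. They are the differences of the separate genotype estimates. The interaction was fitted across all genes, but no p-value is given, since the genes were chosen with genotype results in view.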

How the results depend on the processing

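The genotype differences of Grb10 and most tested changes kept their direction and their side of the threshold. Of the log2 values recomputed under an alternative, 1798 stayed as they were in this sense, 113 genotype values moved by more than 1 SE, 22 calls were lost, 18 were gained and 12 changed sign. Those that changed sign were close to 0. For Copg2, Activin A against Chiron at 120 h, the value was 0.0398 with library totals alone, 0.0044 with no filter, 0.0233 with at least 10 counts in every library, 0.0211 with only the 2 groups compared and -0.0497 to 0.0276 with a library left out. For Igf2r, the time change with Activin A in wt was -0.0154 with no filter, that with Chiron ran from -0.0250 to 0.1225 with a library left out, and the treatment by time value ran from -0.0773 to 0.0504. Calls lost were those of Nnat at 120 h (adjusted p 0.0693 with library totals, 0.0519 with at least 10 counts, 0.146 to 0.177 by limma), Slc38a4 at 96 h (0.392 to 0.45 by limma), Mest at 96 h (0.0579 to 0.0659 by limma), Igf2r with time in Hox-/- (0.188 to 0.251 by limma), Sgce for treatment by time (0.0698 by DESeq2) and Plagl1 for treatment by time (0.574 and 0.624 by limma with 1 added, with the value down from 0.65 to 0.09). Calls gained were those of Igf2r, Peg10 and Copg2 at 96 h and Copg2 with differentiation given above, of Igf2r with no filter (adjusted p 0.0325) and at least 10 counts (0.00851) at 96 h, of Igf2r with time with library totals (0.0345 with Activin A, 0.0290 with Chiron), of Sgce with time with Chiron (0.0450, library totals) and of Slc38a4 for treatment by time without Chiron 96 h replicate 2 (0.33, 0.00487). Whether replicate numbers shared between groups pair the libraries was not settled. Between libraries of the same number r was 0.14 in mES cells and -0.24, 0.23 and 0.02 in endoderm. In groups of 2 libraries, r for unlike numbers is the same value with the opposite sign, so the check says little. A replicate block changed 1 tested call of the 10 genes, adding Igf2r at 96 h (adjusted p 0.0370).

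Counts of all genes called depended on the tool. The mES genotype comparison gave 3168 calls with edgeR, 1099 with DESeq2, 52, 101 and 23 with limma, and 1477 and 1690 without 1 or the other wt library. At 96 h it gave 6546, 3647 with DESeq2 and 3078, 2731 and 2665 with limma, in endoderm 6922 and 4469 with limma without a filter, for treatment at 96 h 10655 and 6725 with limma (0.1 added), and for genotype by time 6544 against 4349 and 4193. The cause was not tested. Library totals alone shifted the median of all genes by -0.11 in the 120 h genotype comparison and by 0.12 for differentiation in wt. limma was not run across the mES and endoderm tables, which were normalized separately, nor for Copg2, whose groups were not ranked by FPKM either. By FPKM, Grb10 and Peg3 kept 8 of 10 groups at their rank. Depth limits Grb10 in Hox-/- gastruloids at 120 h, with 63 and 47 counts.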
